A study of Homo sapiens with 12 samples.

Results

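The transcript levels of 53 autophagy and lysosome genes were followed in cisplatin-resistant lung cancer cells under a mimic of time-restricted feeding (TRF), with and without cisplatin (DDP). The genes were taken by symbol from the known machinery of autophagosome formation, cargo capture and lysosomal digestion, with earlier results of these data known. All 53 were found among the 60902 genes measured, and all 53 were among the 13854 genes that averaged 1 TPM or more (transcripts corrected for length, as a share of the library) over the 12 libraries, which were the genes tested. They comprised 4 genes of the initiation complex, 5 of the phosphatidylinositol 3-kinase (PI3K) complex, 5 that supply membrane to the growing phagophore, 8 of the conjugation machinery, 4 of the ATG8 family, 5 cargo receptors, 3 MiT/TFE transcription factors, 4 lysosomal membrane proteins, 9 proteins of the lysosomal lumen and 6 subunits of the vacuolar proton pump (V-ATPase).

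In autophagy, a cell encloses part of its own cytoplasm in a double membrane and delivers it to the lysosome, where acid hydrolases break it down and return amino acids, lipids and sugars to the cytosol. The ULK1 kinase complex starts the process when nutrients are scarce, a lipid kinase complex marks the membrane, ubiquitin-like ATG8 proteins are attached to it, and receptors bring in the cargo. The MiT/TFE factors switch on many lysosomal genes by binding a short palindromic element, the CLEAR element, and are held in the cytosol by mTORC1 when nutrients are plentiful.

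All 12 libraries came from A549/DDP, a cisplatin-resistant derivative of the A549 human lung adenocarcinoma line that is kept in cisplatin to hold its resistance. The study's results name this line for the sequencing, while its transcriptome methods name A549 tumor cells. Cisplatin at 2 µg/mL for 48 h is given in the legend of the transcriptome results, in a sentence that follows a qPCR panel, and whether it covers the sequenced libraries is not stated, nor is whether the maintenance drug was withdrawn beforehand. The 4 groups of 3 replicates each that were compared were TRF+DDP, cells on the TRF schedule that also received cisplatin; DDP, cells with cisplatin in normal medium; TRF, cells on the schedule without added cisplatin; and CON, cells in normal medium. In each 24 h cycle the TRF schedule gave 6 h of normal medium, with 2 g/L glucose and 10% serum, and 18 h of medium lacking both glucose and serum. The legend of the same figure calls the replicates biological, and no label or method says how they were separated. The p-values measure the spread between these libraries, and the findings hold for 1 cell line.

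Replicates correlated at 0.979 to 0.983 within groups and at 0.915 to 0.979 between groups, over all tested genes on the log2(TPM + 1) scale. TRF replicate 3 had 6.37% of its TPM in mitochondrial genes, against 8.70% to 8.84% in the other TRF libraries, and calls that change without it are given beside the genes or with the alternatives. The epithelial keratins KRT8 and KRT18 averaged 725 and 614 TPM, while KRT19, EPCAM and CDH1 reached at most 0.41, 0.20 and 0.48 TPM and each of 5 lung lineage markers averaged under 1 TPM. Of 8 macrophage and leukocyte markers, 7 stayed under 1 TPM in every library, 2 were listed at 0 throughout, and the pan-leukocyte marker PTPRC reached at most 0.01 TPM. The files hold no read counts, so depth was unknown. TPM is a share of each library's transcripts, and in bulk RNA fewer cells expressing a gene and less of its RNA per cell cannot be told apart.

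Across the 53 genes, cisplatin-treated cells on the TRF schedule had higher transcript levels of 7 and lower levels of 14, compared with the DDP group. The highest rise was in MAP1LC3B, which encodes the autophagosome protein LC3B, and the deepest fall in GABARAPL1, a member of the same ATG8 family. A gene was called when limma's moderated test gave a Benjamini-Hochberg adjusted p under 0.05 over all tested genes and the fold on the log2(TPM + 1) scale was over 1.5, which is 0.585 in log2. By the same rule, 11.8% of all tested genes were higher and 21.4% lower, so that the counts of 7 and 14 (13.2% and 26.4%) stood beside a broad change of the transcriptome. Without cisplatin, the TRF group had 4 of the 53 higher and 10 lower than CON (7.55% and 18.9%), against 8.41% and 17.1% of all tested genes. The median difference of the 53 was -0.24 in TRF+DDP against DDP, where that of all tested genes was -0.10, and -0.17 in TRF against CON, where that of all tested genes was -0.11. On the adjusted p alone, with no fold threshold, 14 members were higher and 31 lower in TRF+DDP against DDP (26.4% and 58.5%), against 27.0% and 38.4% of all tested genes, and 12 were higher and 25 lower in TRF against CON (22.6% and 47.2%), against 23.7% and 37.0%.

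Scaling the libraries by a trimmed mean (TMM-style) moved the all-gene median to 0.00 in TRF+DDP against DDP and in TRF against CON. In TRF against CON, the calls over the transcriptome then split into 1699 higher and 1796 lower, where they were 1165 and 2375 on the deposited scale. In TRF+DDP against DDP they split into 2122 and 2392, where they were 1631 and 2968. Among the 53, the split became 7 higher and 11 lower in TRF+DDP against DDP (13.2% and 20.8%, against 15.3% and 17.3% of all tested genes) and 4 higher and 7 lower in TRF against CON (7.55% and 13.2%, against 12.3% and 13.0%). No called member changed direction under any of the 22 other settings tried.

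The comparisons of TRF+DDP with DDP and of TRF with CON share no library. Of the 14 members called in TRF against CON, 12 (85.7%) were called in the same direction in TRF+DDP against DDP, which is 57.1% of the 21 called there, and none was called in opposite directions. These 12 were ULK1, ULK2, RB1CC1, ATG4A, MAP1LC3B, GABARAPL1, NBR1, MITF, NPC1, CTSA, CTSL and GAA. Over the 53 genes the differences of both comparisons correlated at r = 0.81, and over all tested genes at r = 0.69, across genes, which are not independent replicates. Signs agreed for 83.0% of the 53 and for 77.5% of all tested genes. The share of calls made in both comparisons was not counted over all tested genes. The plot of the members by role shows called rises and called falls side by side in 5 of the 10 functional groups in TRF+DDP against DDP.

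**Figure D1:**
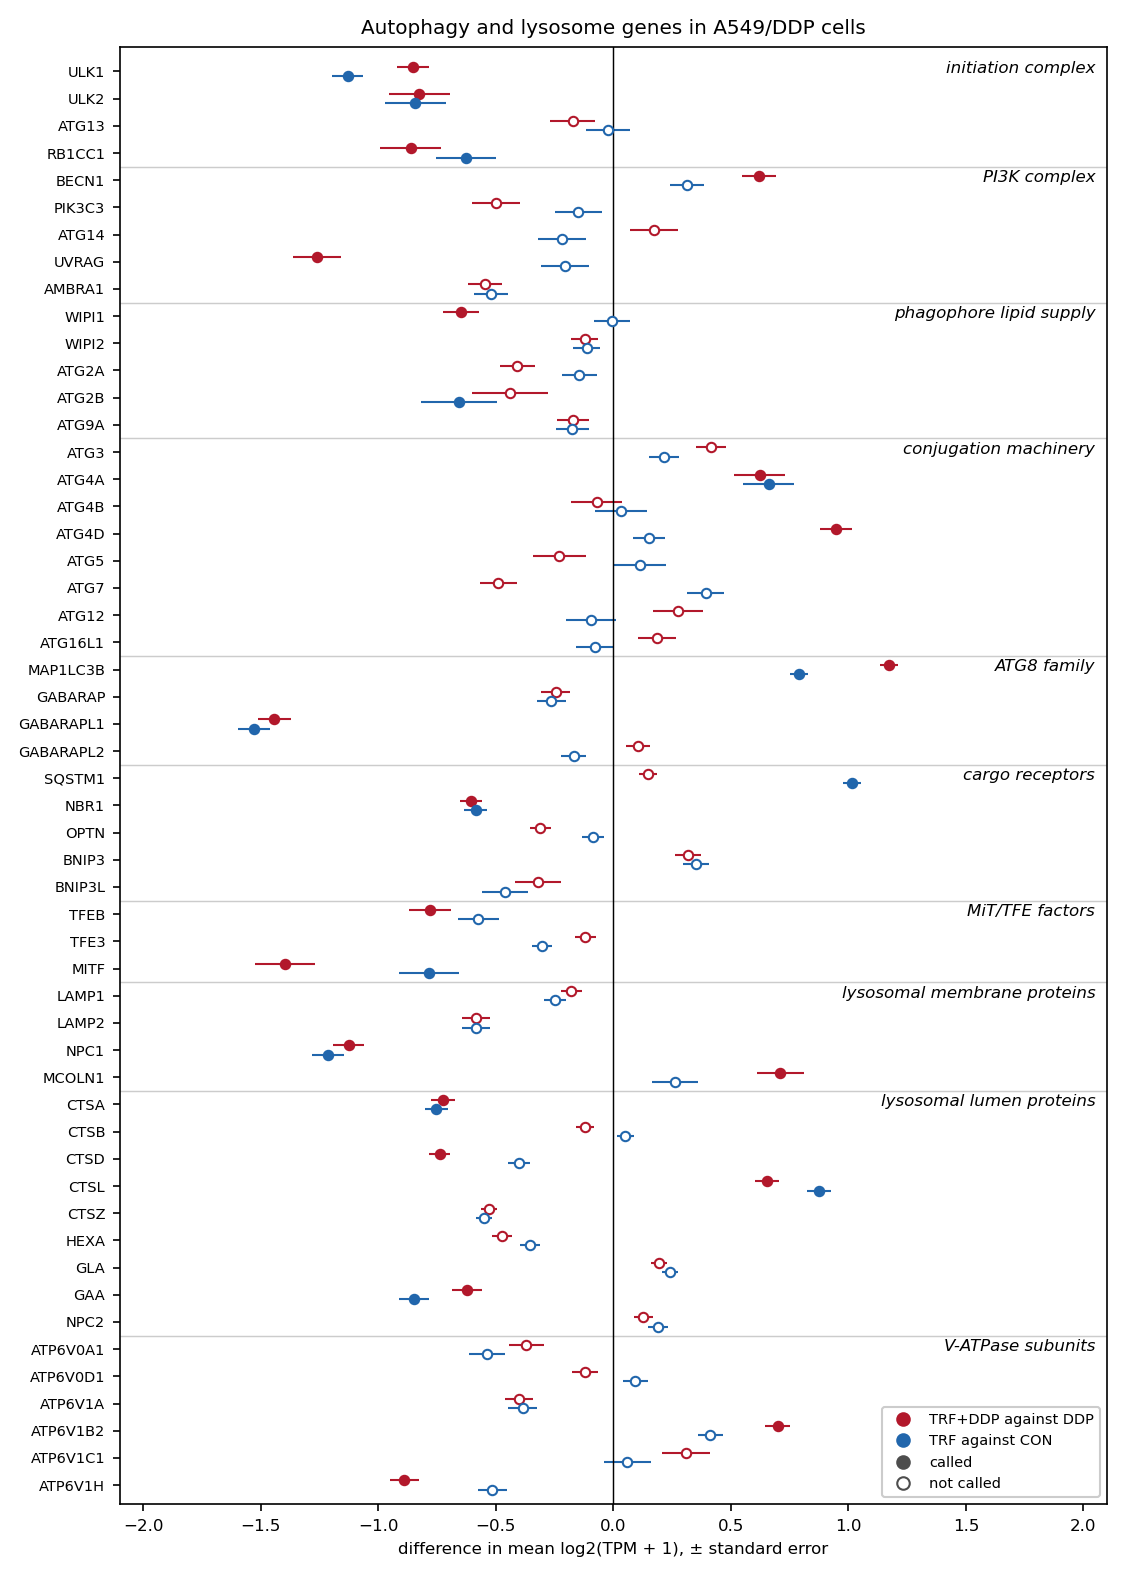
Difference in mean log2(TPM + 1) with its standard error for each of the 53 genes, ordered by role, in TRF+DDP against DDP (red) and TRF against CON (blue), 3 libraries a group. Filled points were called. MAP1LC3B lies at 1.17 and 0.79 and GABARAPL1 at -1.44 and -1.53, and the 3 called members of the initiation complex lie left of 0 in both comparisons.

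Of the 4 genes of the initiation complex among the members, 3 fell in both comparisons and none rose. Of all tested genes, 21.4% were lower in TRF+DDP against DDP and 17.1% in TRF against CON. ATG101, a further subunit of the complex, was placed in another list and rose in both comparisons. Its differences were 0.75 (limma adjusted p = 1e-07) in TRF+DDP against DDP and 0.76 (limma adjusted p = 1.4e-07) in TRF against CON. The absence of a rise thus holds only for the 4 chosen genes. ULK1, the kinase that starts autophagosome formation, had 20.4, 20.1 and 17.7 TPM in the TRF+DDP libraries, against 34.6, 35.7 and 37.2 TPM in the DDP libraries, and 17.6, 17.3 and 17.1 TPM in the TRF libraries, against 38.4, 36.8 and 42.4 TPM in the CON libraries. Every library on the TRF schedule was below every library in normal medium. The difference was -0.85 ± 0.07 (SE, limma adjusted p = 2.8e-07) with cisplatin and -1.13 ± 0.07 (SE, limma adjusted p = 3.8e-08) without it. The related kinase ULK2 had 2.48, 3.07 and 2.84 TPM in the TRF+DDP libraries, against 6.37, 5.64 and 5.19 TPM in the DDP libraries, a difference of -0.83 ± 0.13 (SE, limma adjusted p = 0.00012). It likewise fell in TRF against CON, with 2.00, 2.82 and 3.26 TPM in the TRF libraries, against 5.12, 5.92 and 5.64 TPM in the CON libraries, a difference of -0.84 ± 0.13 (SE, limma adjusted p = 0.00013).

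RB1CC1 encodes FIP200, the scaffold on which the ULK kinases assemble. It had 8.90, 8.28 and 8.26 TPM in the TRF+DDP libraries, against 15.8, 18.1 and 14.9 TPM in the DDP libraries, and the groups did not overlap (-0.86 ± 0.13 SE, limma adjusted p = 7.7e-05). Without cisplatin it had 5.66, 8.16 and 7.07 TPM in the TRF libraries, against 9.74, 10.8 and 13.4 TPM in the CON libraries, a fall of 0.63 ± 0.13 (SE, limma adjusted p = 0.0011). That second call was lost under TMM-style scaling (-0.51), without TRF replicate 1 (-0.50) and without CON replicate 3 (-0.51), each time because the fold dropped under 1.5. ATG13, the adaptor of the complex, was at 55.5 ± 4.68 TPM in TRF+DDP and 62.8 ± 7.16 TPM in DDP (SD, n = 3 each) and was not called.

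The PI3K complex phosphorylates lipids of the nascent membrane, and its subunits moved in both directions. BECN1, its core scaffold, rose in TRF+DDP, with 69.6, 77.8 and 75.3 TPM in the TRF+DDP libraries, against 48.6, 50.2 and 45.1 TPM in the DDP libraries. Every TRF+DDP library was above every DDP library, and the difference was 0.62 ± 0.07 (SE, limma adjusted p = 8.2e-06). Without DDP replicate 3 it was 0.58, under the fold threshold. The difference between TRF and CON was 0.31 (limma adjusted p = 0.0024), which did not reach that fold. BECN1 overlaps PSME3, a proteasome activator gene on the other strand, over 8966 bases, and PSME3 averaged 138 TPM in TRF+DDP and 96.1 TPM in DDP. Whether the counting used strand is not stated, so reads of this pair may not be separated.

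UVRAG, an alternative subunit that directs the complex to endosomes and to autophagosome maturation, fell the most of the 5. It had 3.29, 3.09 and 3.22 TPM in the TRF+DDP libraries, against 8.25, 9.90 and 9.10 TPM in the DDP libraries, a difference of -1.26 ± 0.10 (SE, limma adjusted p = 3.5e-07). Each TRF+DDP library held less UVRAG than any of the other 9 libraries. In TRF against CON it had 7.40, 5.43 and 6.04 TPM in the TRF libraries, against 7.64, 7.36 and 7.08 TPM in the CON libraries, and those groups overlapped (-0.21, limma adjusted p = 0.1). The gene lies at chr11:75815167-76143195, plus strand (GENCODE v29, GRCh38). PIK3C3, the catalytic subunit, ATG14, the autophagy-specific subunit, and AMBRA1, a regulator of BECN1, had differences of -0.50 (limma adjusted p = 0.00089), 0.17 (limma adjusted p = 0.15) and -0.55 (limma adjusted p = 2.6e-05) in TRF+DDP against DDP and were not called.

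Of the 5 genes that supply lipid and membrane to the phagophore, 1 fell in each of the comparisons and none rose. WIPI1, which binds the phosphorylated lipid, had 13.6, 11.8 and 13.4 TPM in the TRF+DDP libraries, against 21.2, 21.4 and 19.7 TPM in the DDP libraries, without overlap. The difference was -0.65 ± 0.08 (SE, limma adjusted p = 9.5e-06) on the deposited scale and -0.53 under TMM-style scaling, where the call was lost. Between TRF and CON it was -0.01 (limma adjusted p = 0.96). ATG2B, a lipid transfer protein, had 2.81, 5.12 and 3.56 TPM in the TRF libraries, against 7.06, 5.54 and 6.90 TPM in the CON libraries, a difference of -0.66 ± 0.16 (SE, limma adjusted p = 0.0038). This low gene lost its call under TMM-style scaling (-0.55) and without TRF replicate 1 (-0.50). In TRF+DDP against DDP, ATG2B had 5.71, 4.25 and 4.23 TPM in the TRF+DDP libraries, against 6.69, 7.01 and 6.44 TPM in the DDP libraries and was not called. WIPI2, ATG2A and ATG9A, the last a lipid scramblase, ranged from -0.41 to -0.12 in that comparison and from -0.17 to -0.11 in TRF against CON, with none called.

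The conjugation machinery attaches ATG8 proteins to lipid, and among its 8 genes those that rose were ATG4 proteases, which trim ATG8 proteins before attachment and release them afterwards. ATG4D, at chr19:10543895-10553418, plus strand, had 34.2, 34.0 and 33.5 TPM in the TRF+DDP libraries, against 17.9, 16.6 and 16.9 TPM in the DDP libraries. The difference was 0.95 ± 0.07 (SE, limma adjusted p = 1.2e-07), and each TRF+DDP library lay above all 9 others. In the absence of cisplatin it had 16.0, 16.3 and 18.8 TPM in the TRF libraries, against 15.2, 14.3 and 16.1 TPM in the CON libraries, a difference of 0.15 (limma adjusted p = 0.074). ATG4A rose in both comparisons, with 5.56, 6.67 and 5.98 TPM in the TRF+DDP libraries, against 3.58, 3.37 and 3.81 TPM in the DDP libraries, and 4.21, 5.18 and 4.32 TPM in the TRF libraries, against 2.85, 2.57 and 2.15 TPM in the CON libraries. Its differences were 0.62 ± 0.11 (SE, limma adjusted p = 0.00026) and 0.66 ± 0.11 (SE, limma adjusted p = 0.0002). The call in TRF+DDP against DDP was lost without TRF+DDP replicate 2 (0.56), and that in TRF against CON without TRF replicate 2 (0.58) or CON replicate 3 (0.58).

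ATG7, the E1-like enzyme that activates the ATG8 proteins and ATG12, had 20.1, 23.4 and 24.1 TPM in the TRF+DDP libraries, against 32.3, 34.3 and 29.6 TPM in the DDP libraries. TRF+DDP lay wholly below DDP, but the difference of -0.49 (limma adjusted p = 0.00014) was under the fold threshold. By contrast, ATG7 had 36.8, 33.0 and 34.5 TPM in the TRF libraries, against 27.7, 24.9 and 26.0 TPM in the CON libraries, which placed TRF wholly above CON (0.39, limma adjusted p = 0.0009). ATG3, the E2-like enzyme, was at 0.41 (limma adjusted p = 0.00011) in TRF+DDP against DDP. ATG4B, ATG5, ATG12 and ATG16L1, the last 3 forming the E3-like complex, ranged from -0.23 to 0.28 and were not called in any comparison.

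The 4 ATG8 family genes encode the ubiquitin-like proteins that coat the autophagosome and bind cargo receptors, and their transcripts diverged. MAP1LC3B, at chr16:87383995-87404779, plus strand, had 151, 152 and 147 TPM in the TRF+DDP libraries, against 66.6, 67.0 and 65.0 TPM in the DDP libraries, and 102, 106 and 99.9 TPM in the TRF libraries, against 59.6, 56.9 and 60.2 TPM in the CON libraries. The 4 groups were fully separated, in the descending order TRF+DDP, TRF, DDP and CON. The difference was 1.17 ± 0.04 (SE, limma adjusted p = 1.8e-10) with cisplatin and 0.79 ± 0.04 (SE, limma adjusted p = 7.5e-09) without it. Its near-identical copy MAP1LC3B2 reached at most 0.62 TPM. On the other strand, FBXO31 overlaps MAP1LC3B over 8148 bases and averaged 15.3 TPM in TRF+DDP and 16.6 TPM in DDP.

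GABARAPL1, at chr12:10212458-10223130, plus strand, went the other way. It had 31.8, 37.4 and 32.5 TPM in the TRF+DDP libraries, against 91.3, 92.9 and 96.9 TPM in the DDP libraries, and 34.4, 29.8 and 29.4 TPM in the TRF libraries, against 90.0, 90.6 and 94.6 TPM in the CON libraries. All 6 libraries on the TRF schedule were between 29.4 and 37.4 TPM and all 6 in normal medium between 90.0 and 96.9 TPM. The difference was -1.44 ± 0.07 (SE, limma adjusted p = 3.4e-09) with cisplatin and -1.53 ± 0.07 (SE, limma adjusted p = 4.2e-09) without it. The copies annotated as GABARAPL3 reached at most 0.05 TPM. Both calls of GABARAPL1, like both of MAP1LC3B, held under every setting tried.

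GABARAP, the most abundant of the 4, had 327, 383 and 361 TPM in the TRF+DDP libraries, against 439, 403 and 423 TPM in the DDP libraries, and 375, 342 and 379 TPM in the TRF libraries, against 418, 443 and 456 TPM in the CON libraries. It was lower in every TRF+DDP library than in any DDP library and lower in TRF than in CON, but the differences of -0.24 (limma adjusted p = 0.0038) and -0.26 (limma adjusted p = 0.0027) stayed under the fold threshold. GABARAPL2 had 120.2, 122 and 126 TPM in the TRF+DDP libraries, against 108, 123 and 112 TPM in the DDP libraries, which overlapped, and 87.8, 95.8 and 94.1 TPM in the TRF libraries, against 108, 102 and 102 TPM in the CON libraries, which did not. Its differences were 0.10 (limma adjusted p = 0.097) and -0.17 (limma adjusted p = 0.014).

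The stretches before the transcription starts of MAP1LC3B and GABARAPL1 are shown because the transcripts of these related genes moved in opposite directions. Each is the 250 bases before the start in RefSeq (GRCh38.p14), MAP1LC3B at chr16:87392086-87392335 (plus strand) and GABARAPL1 at chr12:10212627-10212876 (plus strand). Capitals mark a match to TGACNNNGC, the core of the antioxidant response element, on either strand.
MAP1LC3B: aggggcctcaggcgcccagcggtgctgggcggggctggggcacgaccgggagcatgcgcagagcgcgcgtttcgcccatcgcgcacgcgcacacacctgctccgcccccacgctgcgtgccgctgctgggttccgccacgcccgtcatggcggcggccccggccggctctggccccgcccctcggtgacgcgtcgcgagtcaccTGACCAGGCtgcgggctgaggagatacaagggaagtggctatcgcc
GABARAPL1: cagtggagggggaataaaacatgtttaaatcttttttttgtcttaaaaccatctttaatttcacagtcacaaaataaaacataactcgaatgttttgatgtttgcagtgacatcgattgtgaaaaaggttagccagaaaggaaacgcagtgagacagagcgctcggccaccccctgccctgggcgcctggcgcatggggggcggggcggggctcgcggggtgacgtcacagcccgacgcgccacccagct
MAP1LC3B held 1 match and GABARAPL1 none. Over the windows of 250 bases before to 50 after a start, 11 of the 42 members with a RefSeq window (26.2%) held this core, and 16.1% of 27305 genes did. Those genes were not limited to expressed ones. The 11 did not share a direction in TRF+DDP against DDP. MAP1LC3B and CTSL rose, CTSA, CTSD and GAA fell, and the others were not called. Whether the core bears on either transcript was not tested.

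**Figure D2:**
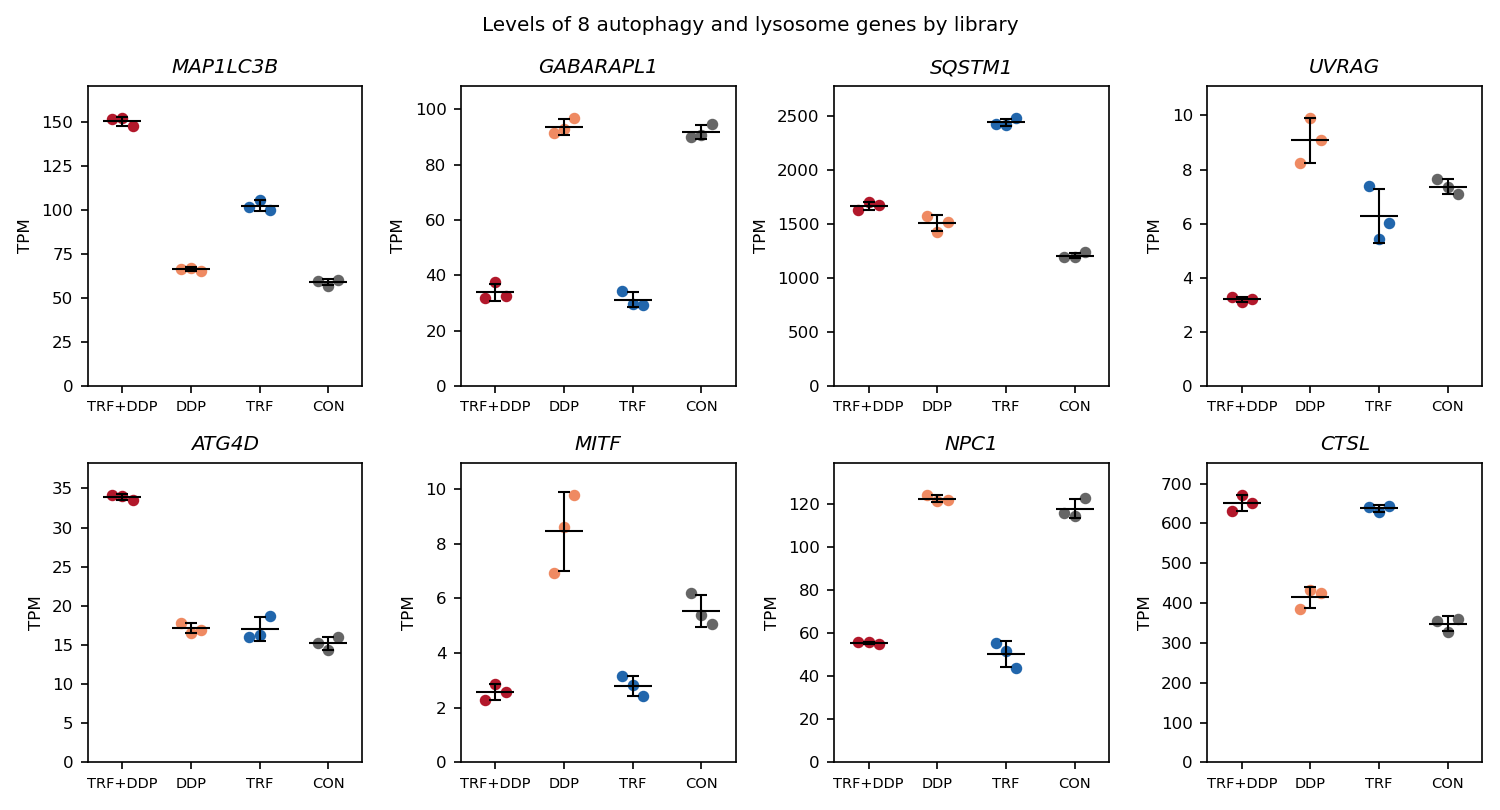
TPM of 8 genes in each of the 12 libraries (points), with the group mean and SD (bars, n = 3), in the order TRF+DDP, DDP, TRF and CON. MAP1LC3B stands at 147 to 152 TPM in TRF+DDP and GABARAPL1 at 31.8 to 37.4 TPM there, SQSTM1 is highest in TRF at 2421 to 2482 TPM, and UVRAG and ATG4D depart from the other groups in TRF+DDP.

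Cargo receptors bind ubiquitinated or organelle cargo and an ATG8 protein at once. SQSTM1, encoding p62, was the most abundant of the 53 transcripts over the 12 libraries, though CTSD averaged more in CON. SQSTM1 showed the highest rise in TRF against CON. It had 2431, 2421 and 2482 TPM in the TRF libraries, against 1191, 1197 and 1239.5 TPM in the CON libraries, a difference of 1.02 ± 0.04 (SE, limma adjusted p = 7.6e-10) without overlap. With cisplatin it had 1628, 1701 and 1673 TPM in the TRF+DDP libraries, against 1577, 1427 and 1517 TPM in the DDP libraries, which also did not overlap, but the difference was 0.15 (limma adjusted p = 0.0045). The gene lies at chr5:179806398-179838078, plus strand.

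NBR1, a receptor related to p62, fell in both comparisons on the deposited scale. It had 45.5, 43.4 and 42.1 TPM in the TRF+DDP libraries, against 66.6, 70.2 and 64.2 TPM in the DDP libraries, and 38.8, 39.1 and 37.0 TPM in the TRF libraries, against 59.0, 57.3 and 57.5 TPM in the CON libraries. The differences of -0.61 ± 0.05 (SE, limma adjusted p = 2.7e-07) and -0.59 ± 0.05 (SE, limma adjusted p = 5.8e-07) lay just past the fold threshold. Under TMM-style scaling they were -0.49 and -0.45. The first was also lost without TRF+DDP replicate 3 (-0.58) or DDP replicate 2 (-0.57), and the second without TRF replicate 3 (-0.56) or CON replicate 1 (-0.57), though NBR1 stayed separated in every pair of groups named. OPTN, a receptor for damaged mitochondria and bacteria, and the mitophagy receptors BNIP3 and BNIP3L had differences of -0.31, 0.32 and -0.32 in TRF+DDP against DDP and were not called.

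Of the 3 MiT/TFE factors, the scarcer ones fell and none rose. MITF, at chr3:69739435-69968337, plus strand, had 2.27, 2.87 and 2.56 TPM in the TRF+DDP libraries, against 6.94, 8.60 and 9.79 TPM in the DDP libraries, and 3.15, 2.83 and 2.42 TPM in the TRF libraries, against 6.19, 5.39 and 5.06 TPM in the CON libraries. The groups did not overlap, with differences of -1.40 ± 0.13 (SE, limma adjusted p = 9.9e-07) and -0.79 ± 0.13 (SE, limma adjusted p = 0.00019). Under quantile normalization the value in TRF against CON was -0.56 and not called. TFEB, best known as the master regulator of lysosomal genes, had 6.64, 7.01 and 7.23 TPM in the TRF+DDP libraries, against 13.6, 11.8 and 12.7 TPM in the DDP libraries, a difference of -0.78 ± 0.09 (SE, limma adjusted p = 6.9e-06). In TRF against CON it had 8.60, 9.79 and 9.04 TPM in the TRF libraries, against 14.3, 12.5 and 15.6 TPM in the CON libraries, again without overlap, and the difference of -0.57 (limma adjusted p = 0.00013) was just under the fold threshold. TFE3, the most abundant of the 3, had 52.9, 52.5 and 49.5 TPM in the TRF+DDP libraries, against 56.3, 55.1 and 57.0 TPM in the DDP libraries, and 44.7, 43.6 and 46.6 TPM in the TRF libraries, against 55.5, 55.1 and 56.5 TPM in the CON libraries. Its levels were separated in both comparisons, at -0.12 (limma adjusted p = 0.029) and -0.30 (limma adjusted p = 6.5e-05), and it was not called.

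The CLEAR core TCACGTGA, to which these factors bind, was searched on both strands of the RefSeq promoter windows and was found in 6 of the 42 members with a window (14.3%), against 1.18% of 27305 genes. It contains the E-box CACGTG, which 21.4% of the members and 8.77% of all genes held. The members were chosen as known autophagy and lysosome genes and were all expressed, while the 27305 genes were not limited to expressed ones. An excess of the core was not tested. The matching stretches are shown, with the core in capitals, for ATG3 at chr3:112561933-112561988 (minus strand), LAMP1 at chr13:113297180-113297268 (plus strand), CTSA at chr20:45891279-45891346 (plus strand), GAA at chr17:80101474-80101586 (plus strand), MCOLN1 at chr19:7522552-7522646 (plus strand) and ATP6V0D1 at chr16:67481180-67481247 (minus strand), all GRCh38.p14.
ATG3: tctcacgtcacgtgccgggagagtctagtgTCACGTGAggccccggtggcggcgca
LAMP1: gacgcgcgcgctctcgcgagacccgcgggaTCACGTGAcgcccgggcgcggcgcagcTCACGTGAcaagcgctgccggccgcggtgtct
CTSA: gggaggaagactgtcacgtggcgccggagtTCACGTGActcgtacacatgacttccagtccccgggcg
GAA: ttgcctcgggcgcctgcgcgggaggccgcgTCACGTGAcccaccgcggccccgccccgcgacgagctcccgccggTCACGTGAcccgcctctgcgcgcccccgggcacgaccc
MCOLN1: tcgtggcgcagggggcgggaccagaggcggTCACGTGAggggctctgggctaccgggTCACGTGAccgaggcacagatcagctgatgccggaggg
ATP6V0D1: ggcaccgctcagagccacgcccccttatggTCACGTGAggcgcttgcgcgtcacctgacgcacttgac
LAMP1, GAA and MCOLN1 held 2 matches each. In TRF+DDP against DDP these 6 genes did not share a direction: MCOLN1 rose (0.71), CTSA and GAA fell (-0.73 and -0.62), and ATG3, LAMP1 and ATP6V0D1 were at 0.41, -0.18 and -0.12 without a call. The other motifs searched were TGATGNAAN, a C/EBP-ATF element held by none of the 42 members and 4.45% of genes, GAANNTTC, a heat shock element core held by 2.38% and 8.21%, and ACGTG, the hypoxia response core held by 45.2% and 24.9%, which also lies within the E-box.

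Among the 4 lysosomal membrane proteins, NPC1 fell and MCOLN1 rose. NPC1, which exports cholesterol from the lysosome, had 55.9, 55.8 and 54.9 TPM in the TRF+DDP libraries, against 124, 121 and 122 TPM in the DDP libraries, and 55.6, 51.5 and 43.9 TPM in the TRF libraries, against 116, 114 and 123 TPM in the CON libraries. Libraries on the TRF schedule did not exceed 55.9 TPM and those in normal medium were at 114 TPM or more. The differences were -1.13 ± 0.07 (SE, limma adjusted p = 2.3e-08) and -1.21 ± 0.07 (SE, limma adjusted p = 2.1e-08). The neighbour RMC1 overlaps NPC1 on the other strand over 25624 bases and averaged 18.9 TPM in TRF+DDP and 13.8 TPM in DDP. MCOLN1, the lysosomal calcium channel, had 22.6, 26.3 and 20.8 TPM in the TRF+DDP libraries, against 14.2, 13.3 and 13.8 TPM in the DDP libraries, a difference of 0.71 ± 0.10 (SE, limma adjusted p = 3.8e-05) without overlap. In TRF against CON it had 14.8, 15.6 and 12.8 TPM in the TRF libraries, against 13.1, 11.5 and 10.9 TPM in the CON libraries, where the groups overlapped (0.26, limma adjusted p = 0.034). The abundant membrane glycoproteins LAMP1 and LAMP2 were at -0.18 and -0.58 in TRF+DDP against DDP and at -0.25 and -0.58 in TRF against CON. LAMP2 lay just under the fold threshold in both.

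Of the 9 proteins of the lysosomal lumen, 3 fell and 1 rose in TRF+DDP against DDP, and 2 fell and 1 rose in TRF against CON. CTSL, a cysteine protease, rose. It had 631, 672 and 652 TPM in the TRF+DDP libraries, against 385, 434 and 424 TPM in the DDP libraries, and 642, 628 and 643 TPM in the TRF libraries, against 356, 326 and 361 TPM in the CON libraries. All 6 libraries on the TRF schedule were at 628 TPM or more and all 6 in normal medium at 434 TPM or less. The differences were 0.65 ± 0.05 (SE, limma adjusted p = 2.3e-07) and 0.87 ± 0.05 (SE, limma adjusted p = 3e-08).

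CTSD, the main aspartic protease of the lysosome, had 724, 717 and 685 TPM in the TRF+DDP libraries, against 1182, 1136 and 1234 TPM in the DDP libraries, a fall of 0.74 ± 0.05 (SE, limma adjusted p = 3.2e-08). Without cisplatin it had 1002, 903 and 905 TPM in the TRF libraries, against 1241, 1210.0 and 1259.8 TPM in the CON libraries, which did not overlap, and the difference of -0.40 (limma adjusted p = 1.1e-05) was not called. AC068580.4, annotated on the same strand, overlaps CTSD over 11203 bases. It averaged 29.8 TPM in TRF+DDP, 68.8 in DDP, 40.1 in TRF and 69.0 in CON, and reads of this pair may not be separated. CTSA, a carboxypeptidase that also stabilises lysosomal glycosidases, fell in both comparisons. It had 131, 133 and 134 TPM in the TRF+DDP libraries, against 221, 209 and 229 TPM in the DDP libraries, and 152, 132 and 141 TPM in the TRF libraries, against 236, 236 and 245 TPM in the CON libraries. The differences were -0.73 ± 0.05 (SE, limma adjusted p = 8.9e-08) and -0.75 ± 0.05 (SE, limma adjusted p = 1.1e-07), and the groups were fully separated.

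GAA, the acid glucosidase that digests lysosomal glycogen, fell by 0.62 ± 0.06 (SE, limma adjusted p = 2.7e-06) in TRF+DDP against DDP and by 0.85 ± 0.06 (SE, limma adjusted p = 2.7e-07) in TRF against CON. The first of these calls was lost under TMM-style scaling (-0.51) and without TRF+DDP replicate 3 (-0.55). The other 5 were not called. CTSZ, a carboxypeptidase, and HEXA, which degrades gangliosides, were at -0.53 and -0.47 in TRF+DDP against DDP, CTSB, a cysteine protease, at -0.12, and the galactosidase GLA and the cholesterol carrier NPC2 at 0.19 and 0.13.

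The V-ATPase acidifies the lysosome through a membrane part, V0, and a catalytic part, V1, and its 6 members again split. ATP6V1H, a regulatory V1 subunit, had 30.4, 31.0 and 30.9 TPM in the TRF+DDP libraries, against 55.4, 61.4 and 57.0 TPM in the DDP libraries, a difference of -0.89 ± 0.06 (SE, limma adjusted p = 7.9e-08). In TRF against CON it had 31.9, 34.7 and 29.8 TPM in the TRF libraries, against 45.2, 48.8 and 44.9 TPM in the CON libraries and was not called (-0.52, limma adjusted p = 1.5e-05). ATP6V1B2, a subunit of the catalytic ring, had 42.9, 41.9 and 43.2 TPM in the TRF+DDP libraries, against 26.4, 25.5 and 25.8 TPM in the DDP libraries, a difference of 0.70 ± 0.05 (SE, limma adjusted p = 1.8e-07). It had 31.1, 35.1 and 32.8 TPM in the TRF libraries, against 23.9, 25.4 and 24.2 TPM in the CON libraries, without overlap, at 0.41 (limma adjusted p = 2.7e-05). The catalytic subunit ATP6V1A, the linking subunit ATP6V1C1 and the V0 subunits ATP6V0A1 and ATP6V0D1 ranged from -0.40 to 0.31 in TRF+DDP against DDP and were not called.

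With cisplatin added in normal medium, no member passed the threshold. In DDP against CON, 0 of 53 were higher and 0 lower by limma, where 1.86% of all tested genes were higher and 0.159% lower. With no adjustment of the p and no fold threshold, 23 members were higher and 3 lower at a limma p under 0.05, which are 43.4% and 5.66% of the 53, against 21.0% and 6.19% of all tested genes. On the adjusted p with no fold threshold, 14 were higher and 0 lower (26.4% higher), against 10.0% and 2.17% of all tested genes. The widest difference was that of MITF, with 6.94, 8.60 and 9.79 TPM in the DDP libraries, against 6.19, 5.39 and 5.06 TPM in the CON libraries, a difference of 0.52 (limma adjusted p = 0.021). It passed the threshold with a pseudocount of 0.1 (0.59), without CON replicate 1 (0.59) and without DDP replicate 1 (0.64). RB1CC1, at 0.50 (limma adjusted p = 0.027), passed it without CON replicate 3 (0.62). SQSTM1 had 1577, 1427 and 1517 TPM in the DDP libraries, against 1191, 1197 and 1239.5 TPM in the CON libraries, separated but at 0.32 (limma adjusted p = 0.00022).

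With cisplatin added on the TRF schedule, 3 members rose and 2 fell. In TRF+DDP against TRF these were 5.66% and 3.77% of the 53, where 10.2% of all tested genes were higher and 6.10% lower. With no fold threshold, 17 members were higher and 8 lower (32.1% and 15.1%), against 28.1% and 19.8% of all tested genes. Under TMM-style scaling 1 member was higher and 3 lower (1.89% and 5.66%, against 8.15% and 7.90%), and the calls over the transcriptome split into 1129 and 1094, where they were 1413 and 845 on the deposited scale. ATG4D had 34.2, 34.0 and 33.5 TPM in the TRF+DDP libraries, against 16.0, 16.3 and 18.8 TPM in the TRF libraries, a difference of 0.96 ± 0.07 (SE, limma adjusted p = 3.6e-07). UVRAG fell by 0.79 ± 0.10 (SE, limma adjusted p = 5.8e-05), with 3.29, 3.09 and 3.22 TPM in the TRF+DDP libraries, against 7.40, 5.43 and 6.04 TPM in the TRF libraries. Both calls held when any single library was left out.

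The other 3 calls were less steady. ATG7 had 20.1, 23.4 and 24.1 TPM in the TRF+DDP libraries, against 36.8, 33.0 and 34.5 TPM in the TRF libraries, a difference of -0.60 ± 0.08 (SE, limma adjusted p = 5.6e-05), and the fold was under 1.5 without TRF replicate 1 (-0.56) or TRF+DDP replicate 1 (-0.53). MCOLN1 had 22.6, 26.3 and 20.8 TPM in the TRF+DDP libraries, against 14.8, 15.6 and 12.8 TPM in the TRF libraries, a difference of 0.65 ± 0.10 (SE, limma adjusted p = 0.00017). That call was lost under TMM-style scaling (0.57), without TRF replicate 3 (0.57) and without TRF+DDP replicate 2 (0.56). ATP6V1C1 had 43.8, 38.1 and 43.4 TPM in the TRF+DDP libraries, against 25.6, 30.6 and 26.1 TPM in the TRF libraries. Its difference of 0.59 ± 0.10 (SE, limma adjusted p = 0.00045) was just past the threshold, and the call was lost under TMM-style scaling (0.50) and without TRF replicate 1 (0.54), TRF replicate 3 (0.56), TRF+DDP replicate 1 (0.56) or TRF+DDP replicate 3 (0.56).

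Whether cisplatin moved a gene differently on the TRF schedule was tested by the interaction, the difference of TRF+DDP from TRF minus that of DDP from CON, called on the adjusted p alone. It was called for 18 of the 53, 8 with a positive and 10 with a negative value (15.1% and 18.9%), against 13.5% and 16.3% of all tested genes and 29.8% in either direction. The same term is the difference between the response to TRF with and without cisplatin. The smallest adjusted p was that of SQSTM1, at -0.87 ± 0.05 (SE, limma adjusted p = 1e-06). SQSTM1 was lower in TRF+DDP than in TRF (-0.55, and -0.65 and called under TMM-style scaling) and higher in DDP than in CON (0.32).

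UVRAG (-1.05 ± 0.15 SE, limma adjusted p = 0.00022), ATG7 (-0.88 ± 0.11 SE, limma adjusted p = 0.00012) and WIPI1 (-0.64 ± 0.11 SE, limma adjusted p = 0.00089) had the same pattern of signs, with differences of -0.79, -0.60 and -0.41 in TRF+DDP against TRF and of 0.27, 0.28 and 0.24 in DDP against CON, none of the last 3 called. WIPI1 had 13.6, 11.8 and 13.4 TPM in the TRF+DDP libraries, against 16.9, 19.1 and 16.2 TPM in the TRF libraries, and 21.2, 21.4 and 19.7 TPM in the DDP libraries, against 18.3, 16.9 and 17.2 TPM in the CON libraries. ATG4D (0.79 ± 0.10 SE, limma adjusted p = 9.1e-05) and MAP1LC3B (0.38 ± 0.05 SE, limma adjusted p = 0.0003) had a positive interaction, with a larger positive difference on the TRF schedule than in normal medium. MAP1LC3B differed by 0.55 between TRF+DDP and TRF and by 0.17 between DDP and CON.

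GABARAPL1 and NPC1, which fell in both TRF comparisons, had interactions of 0.09 (limma adjusted p = 0.55) and 0.09 (limma adjusted p = 0.53). Of the 9 members called in TRF+DDP against DDP and not in TRF against CON, the interaction was called for BECN1, UVRAG, WIPI1, ATG4D, MCOLN1, CTSD, ATP6V1B2 and ATP6V1H and not for TFEB (-0.21, limma adjusted p = 0.24). Of the 2 called in TRF against CON alone, it was called for SQSTM1 and not for ATG2B (0.22, limma adjusted p = 0.51). Both sets were picked by calls in the comparisons whose difference is the interaction, so these calls are not separate support. Of the 18 interactions, 10 held under every setting. BECN1, CTSB, CTSL, MCOLN1, MITF, OPTN, TFE3 and ULK1 lost theirs under at least 1, and each of these 8 lost it without at least 1 single library, at adjusted p values between 0.0505 and 0.114 where lost. Under TMM-style scaling the lost interactions were those of BECN1 (0.29, limma adjusted p = 0.052), CTSB (-0.19, limma adjusted p = 0.077), TFE3 (0.17, limma adjusted p = 0.11) and ULK1 (0.26, limma adjusted p = 0.051). PIK3C3, not called at -0.35 (limma adjusted p = 0.088), gained an interaction without TRF replicate 3 (-0.43, limma adjusted p = 0.041) or TRF+DDP replicate 1 (-0.43, limma adjusted p = 0.046).

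**Figure D3:**
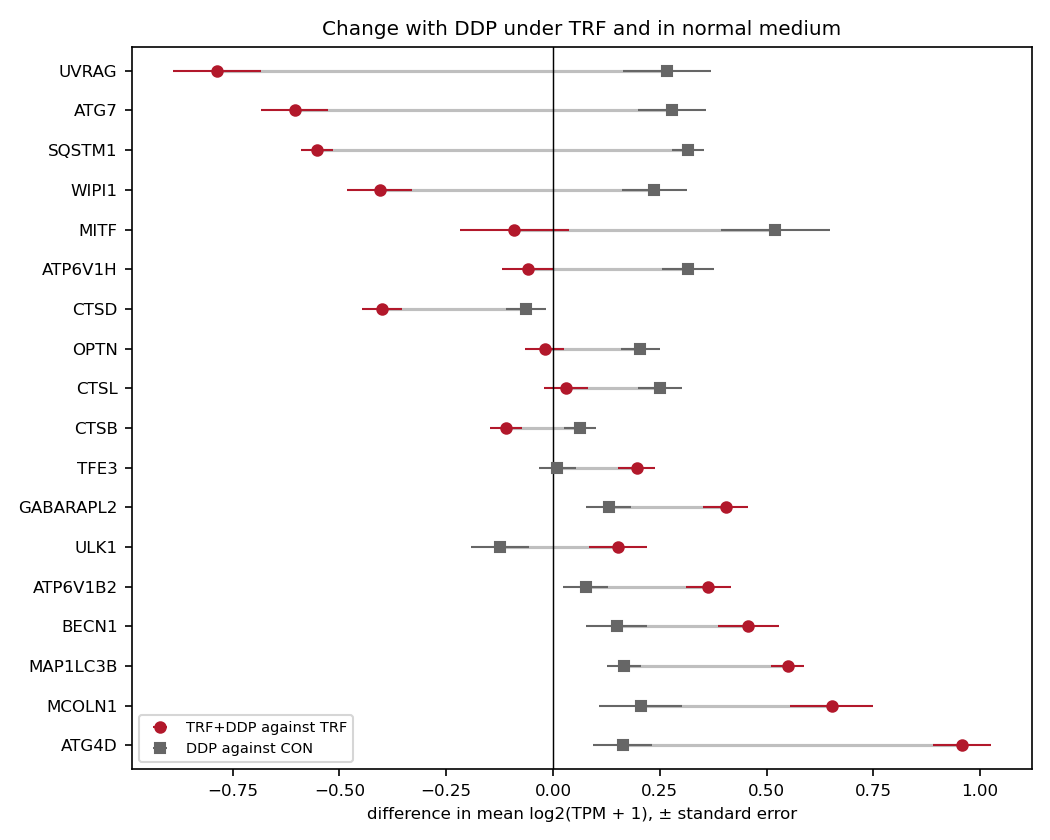
Change with cisplatin for the 18 members with an interaction, as the difference in mean log2(TPM + 1) ± SE, in TRF+DDP against TRF (red circles) and DDP against CON (grey squares), ordered by the difference between them. UVRAG, ATG7, SQSTM1 and WIPI1 lie left of 0 on the TRF schedule and right of 0 in normal medium, and ATG4D reaches 0.96 on the schedule and 0.16 in normal medium.

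Compared with untreated cells, 19 members were called with the combination. In TRF+DDP against CON, 8 were higher and 11 lower (15.1% and 20.8%), where 15.6% and 19.5% of all tested genes were. With no fold threshold there were 15 and 26 (28.3% and 49.1%), against 31.9% and 35.3%. This comparison shares its libraries with the others. ATP6V1C1 (0.65, limma adjusted p = 9.6e-05) lost its call there without CON replicate 3 (0.56). The called members not named by another comparison were AMBRA1 (-0.73, limma adjusted p = 1.9e-06) and CTSZ (-0.61, limma adjusted p = 8.3e-09), the second of which was lost under TMM-style scaling (-0.57). Of the 53 genes, 22 were called in none of the 6 comparisons, among them LAMP1, LAMP2, NPC2, HEXA, GLA, ATG5, ATG12 and ATG16L1. The matching share was not counted over all tested genes. Some of the 22 passed the adjusted p and missed only the fold, HEXA, LAMP2 and GLA among them.

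Another 6 lists of autophagy and lysosome genes, 158 genes of which 149 were tested, were read in the same fit. In TRF+DDP against DDP, 12 of the 149 were higher and 30 lower, which is 8.05% and 20.1%, against 11.8% and 21.4% of all tested genes. In TRF against CON 8 were higher and 26 lower, which is 5.37% and 17.4%, against 8.41% and 17.1%. Of 25 tested genes of other autophagy machinery, 2 rose and 2 fell in TRF+DDP against DDP (8.0% each way). ATG10, the E2-like enzyme for ATG12, had 3.88, 3.46 and 5.11 TPM in the TRF+DDP libraries, against 13.6, 13.3 and 13.9 TPM in the DDP libraries, a difference of -1.52 (limma adjusted p = 2.3e-07) without overlap. VMP1, an endoplasmic reticulum scramblase needed for phagophore growth, was also lower (-0.77, limma adjusted p = 2.8e-06). ATG101, the partner of ATG13 in the initiation complex, was higher (0.75, limma adjusted p = 1e-07), as was WDR45, a relative of the WIPI proteins (0.72, limma adjusted p = 2e-06).

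Of 16 tested genes of other cargo receptors and selective autophagy, 0 rose and 6 fell (37.5% lower, against 21.4% of all tested genes), where 4 of the 16 lay above DDP and 8 below it with a limma p under 0.05 before adjustment. The lower ones included CALCOCO1, an endoplasmic reticulum phagy receptor (-1.10, limma adjusted p = 7.4e-07), the mitophagy kinase PINK1 (-0.93, limma adjusted p = 2.8e-08), the scaffold WDFY3 (-0.92, limma adjusted p = 1.6e-05) and RETREG1 (-0.82, limma adjusted p = 0.00013). Of 39 tested genes of other lysosomal hydrolases and their activators, 2 were higher and 11 lower in TRF+DDP against DDP (5.13% and 28.2%), with a median difference of -0.47 where that of all tested genes was -0.10, and 1 was higher and 13 lower in TRF against CON (2.56% and 33.3%). GALNS, a sulfatase of keratan sulfate, had 21.1, 20.3 and 19.3 TPM in the TRF+DDP libraries, against 55.1, 52.2 and 55.8 TPM in the DDP libraries. The groups were far apart, at -1.38 (limma adjusted p = 3.5e-10), and so were those of MANBA (-1.27, limma adjusted p = 1.4e-06), CTSO (-1.17, limma adjusted p = 4.3e-06) and GLB1 (-0.90, limma adjusted p = 1.8e-08).

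Other lysosomal membrane and transport proteins had 2 of 26 higher and 6 lower (7.69% and 23.1%). CD68, a lysosomal glycoprotein abundant in macrophages, had 45.4, 50.5 and 49.4 TPM in the TRF+DDP libraries, against 12.1, 10.3 and 11.0 TPM in the DDP libraries, and 31.2, 33.4 and 30.3 TPM in the TRF libraries, against 6.14, 7.35 and 6.45 TPM in the CON libraries. It rose in both comparisons, by 2.03 ± 0.08 (SE, limma adjusted p = 6.2e-10) and 2.09 ± 0.08 (SE, limma adjusted p = 7.9e-10), and in DDP against CON by 0.67 (limma adjusted p = 0.0002), where it was the only one of the 149 called. LAPTM5, a lysosomal protein of blood cells, had 2.47, 2.93 and 2.45 TPM in the TRF+DDP libraries, against 0.34, 0.29 and 0.11 TPM in the DDP libraries, a difference of 1.54 (limma adjusted p = 8e-07). It was under 1 TPM in every DDP library, and its mean over the 12 libraries reached 1 TPM only through other groups. The summed TPM of the 8 macrophage and leukocyte markers lay at 3.86 to 5.31 in TRF+DDP against 4.54 to 5.41 in DDP, and at 1.71 to 2.11 in TRF against 3.19 to 3.53 in CON, most of it ITGAM. SORT1, the sorting receptor sortilin, and the cation channel TPCN1 fell, by 1.70 (limma adjusted p = 2.3e-08) and 1.54 (limma adjusted p = 3.5e-09).

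Of 16 tested genes of other V-ATPase subunits and assembly factors, 3 rose and 3 fell in TRF+DDP against DDP (18.8% each way). ATP6V1D (0.76, limma adjusted p = 1.7e-06) and ATP6V1G1 (0.66, limma adjusted p = 2e-06), both of the V1 stalk, were among the higher ones, and the assembly proteins DMXL2 (-1.10, limma adjusted p = 3.3e-05) and WDR7 (-0.92, limma adjusted p = 0.00036) among the lower. In the nutrient-sensing list, which covers mTORC1, its lysosomal anchors and AMP-activated kinase, 3 of 27 rose and 2 fell (11.1% and 7.41%). DEPTOR, an inhibitor of mTOR, had 0.19, 0.16 and 0.14 TPM in the TRF+DDP libraries, against 3.50, 3.87 and 3.46 TPM in the DDP libraries, the deepest fall of the 149 at -1.99 (limma adjusted p = 4.1e-09). It was under 1 TPM in every TRF+DDP library and passed the filter of a mean of 1 TPM through other groups. The beta subunits of AMP-activated kinase both rose. PRKAB1 had 73.9, 76.1 and 69.1 TPM in the TRF+DDP libraries, against 19.9, 20.0 and 21.5 TPM in the DDP libraries, a difference of 1.79 (limma adjusted p = 2.1e-10). PRKAB2 had 38.1, 34.6 and 37.3 TPM in the TRF+DDP libraries, against 14.3, 15.6 and 13.5 TPM in the DDP libraries, a difference of 1.28 (limma adjusted p = 2.8e-08), and neither gene overlapped between the groups. RRAGD, a Rag GTPase that recruits mTORC1 to the lysosome, was higher too (0.81, limma adjusted p = 0.00011).

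**Figure D4:**
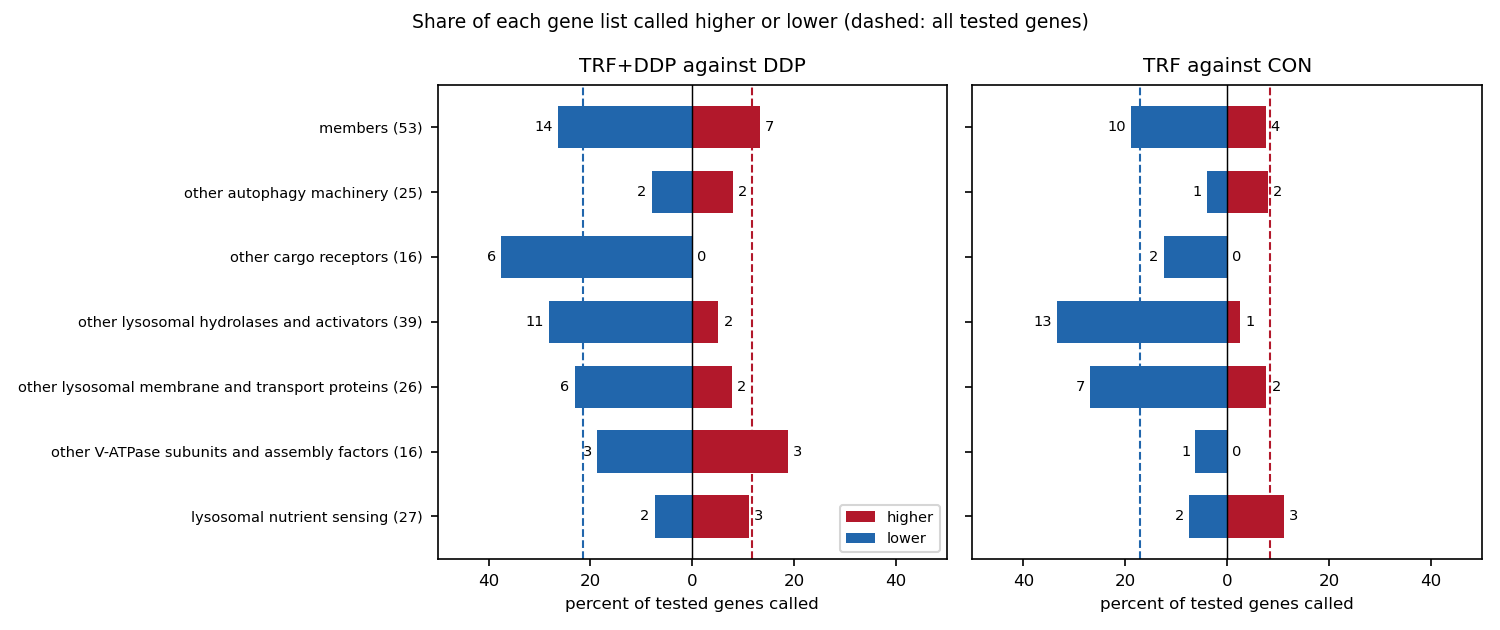
Percent of the tested genes of each list called higher (right) or lower (left) in TRF+DDP against DDP and in TRF against CON, with the number called at each bar, the number tested in brackets and the share of all tested genes as dashed lines. The 53 members lie at 13.2% higher and 26.4% lower in TRF+DDP against DDP, where the dashed lines are at 11.8% and 21.4%, and the other hydrolases extend left to 28.2% and 33.3%.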

How the data were processed

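RNA from A549/DDP cells was sequenced in 12 libraries, grouped by their labels. Reads were trimmed with SeqPrep and sickle, mapped with HISAT2 and assembled with StringTie. The authors deposited TPM per gene and library, normalized to each library's transcripts, and 4 columns of group means that were not used. The submitters' notes name edgeR. For versions, genome build, quantification tool and strandedness, nothing is given in the sources used here. No counts are in the files used, so depth is unknown and precision rests on 3 replicates.

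Genes that averaged 1 TPM or more were tested on log2(TPM + 1), a pseudocount of 1 that understates changes of low genes, in 1 limma fit (version 3.58.1, R 4.3.3, trend and robust) of all 12 libraries, after a test on simulated data. Calls needed an adjusted p under 0.05 (Benjamini-Hochberg) and a fold over 1.5, the interaction the adjusted p alone. The study's DESeq2 test needs counts and was not run.

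Members, lists and tests were chosen with earlier results of these data known. Every library's value was given for up to 3 called members per role by the size of their change in TRF+DDP against DDP, for up to 5 called in TRF+DDP against TRF, for up to 6 interactions by adjusted p, and for all ATG8 and MiT/TFE genes, and from each other list up to 4 called genes were named. Others are named as not called or for their values. Alternatives were TMM-style scaling, quantile normalization, a pseudocount of 0.1, no filter, a filter of 1 TPM in every library, no trend, only the groups compared, no fold threshold, a test against the fold, a replicate block and each library left out. Gene positions are from GENCODE v29 (GRCh38), and promoter windows, 250 bases before to 50 after a start, from RefSeq (GRCh38.p14), which matched 42 of 53 members. By these positions 23 of the 53 overlap another gene that averaged 1 TPM or more, and 30 do not. The overlaps include HEXA, over 35063 bases on the same strand, and GLA, over 10210 bases on the other. They are described in the results for only some of the genes.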

Additional observations from a re-analysis of the deposited data

Results flagged for a closer look

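The change with cisplatin differed between the TRF schedule and normal medium, by limma's interaction term with Benjamini-Hochberg adjustment over all tested genes, for 18 members. The values, as the log2 change in TRF+DDP against TRF minus that in DDP against CON, were negative for 10: UVRAG -1.05, ATG7 -0.88, SQSTM1 -0.87, WIPI1 -0.64, MITF -0.61, ATP6V1H -0.37, CTSD -0.34, OPTN -0.22, CTSL -0.22 and CTSB -0.17. They were positive for 8: TFE3 0.19, GABARAPL2 0.27, ULK1 0.28, ATP6V1B2 0.29, BECN1 0.31, MAP1LC3B 0.38, MCOLN1 0.45 and ATG4D 0.79. The adjusted p ranged from 1e-06 for SQSTM1 to 0.046 for ULK1, and 29.8% of all tested genes had such a difference. The values over 0.6 in size were those of UVRAG, ATG7, SQSTM1, WIPI1, MITF and ATG4D. Libraries within a group were too few, at 3, for a search for single outlying samples.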

How the results depend on the processing

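Over the 6 comparisons, 77 member calls were made. Of these, 42 held under all 22 other settings that apply to them, 35 were lost under at least 1, and none reversed. Most losses came from testing against the 1.5 fold itself, which left 2 of 7 higher and 8 of 14 lower calls in TRF+DDP against DDP, 5 of 10 lower in TRF against CON, 1 of 3 higher and 0 of 2 lower in TRF+DDP against TRF, and 7 of 11 lower in TRF+DDP against CON. Over all tested genes the same test left 831 of 1631 higher and 1617 of 2968 lower calls in TRF+DDP against DDP. It left 945 of 2375 lower in TRF against CON and 1548 of 2708 lower in TRF+DDP against CON. In TRF+DDP against TRF it left 409 of 1413 higher and 282 of 845 lower. With no fold threshold 14 members were higher and 31 lower in TRF+DDP against DDP (26.4% and 58.5%, against 27.0% and 38.4% of all tested genes). In TRF against CON there were 12 and 25 (22.6% and 47.2%, against 23.7% and 37.0%). TRF+DDP against TRF had 17 and 8 (32.1% and 15.1%, against 28.1% and 19.8%), and TRF+DDP against CON 15 and 26 (28.3% and 49.1%, against 31.9% and 35.3%). At the same setting, DDP against CON had 14 higher (26.4%, against 10.0%). A pseudocount of 0.1 gave 1 higher in DDP against CON. In TRF+DDP against TRF there was 1 higher and 2 lower under quantile normalization, and 1 higher and 3 lower under TMM-style scaling, which added SQSTM1 (-0.65). Interactions numbered 11 with no filter on low values, where more genes were tested.

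Leaving out single libraries gave 0 to 1 higher in DDP against CON (1 without CON replicate 1, CON replicate 3 or DDP replicate 1), 1 to 3 higher in TRF+DDP against TRF (1 without TRF replicate 3), 1 to 2 lower there (1 without TRF replicate 1 or TRF+DDP replicate 1), and 11 to 19 interactions (11 without DDP replicate 3). Over all tested genes, these fits gave 225 to 264 higher in DDP against CON. They gave 1302 to 1635 higher and 821 to 911 lower in TRF+DDP against TRF. The interactions over all tested genes were 1474 to 2195 positive and 1917 to 2229 negative. With 1 library out, a group of 2 was tested with the spread pooled over groups. By single library, named by group and replicate, the interaction was lost for BECN1 without CON 2, DDP 1, DDP 3, TRF 1, TRF 3, TRF+DDP 2 or TRF+DDP 3, for CTSB without CON 1, DDP 1, DDP 3, TRF 1 or TRF+DDP 3, for CTSL without CON 2, DDP 2, DDP 3, TRF 1, TRF 3, TRF+DDP 1 or TRF+DDP 3, for MCOLN1 without CON 1, DDP 2, DDP 3, TRF 3 or TRF+DDP 2, for MITF without CON 2, CON 3, DDP 3, TRF 1 or TRF+DDP 1, for OPTN without CON 2, for TFE3 without any one but TRF 3 or TRF+DDP 3, and for ULK1 without any one but CON 2 or TRF+DDP 3. An interaction was gained for ATG14 and ATP6V0D1 without DDP 2 or TRF 2 and under several other settings, for ATG2A without DDP 2 or TRF 2, for ATG16L1 without TRF+DDP 3, for GAA without TRF 1 or TRF+DDP 3, and for PIK3C3 without TRF 3 or TRF+DDP 1. Lower calls were gained for LAMP2 in TRF+DDP against DDP without DDP 2 or TRF+DDP 1 and in TRF against CON without CON 3 or TRF 2, for TFEB in TRF against CON without CON 2 or TRF 2, and for ATP6V1H in TRF+DDP against CON without CON 1 or CON 3.

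No deviation shared by replicate number was seen. Deviations of same-numbered libraries from their group means correlated at -0.08 to 0.08, and those of differently numbered libraries at -0.08 to 0.13. With 3 libraries a group, these values cannot show whether the libraries were prepared in matched sets, which is not stated. With the replicate number as a block, the counts of member calls stayed the same in all comparisons of groups and the member interactions numbered 17. Over all tested genes 1821 interactions were then positive and 2250 negative. With 3 libraries a group and no counts, errors of low genes such as ATG2B and MITF could not be told from counting error.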

Other observations

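Summed over the 53 genes, the level was 6562 to 6720 TPM in TRF+DDP libraries, against 7017 to 7285 TPM in DDP libraries, and 7308 to 7515 TPM in TRF libraries, against 6587 to 6807 TPM in CON libraries. SQSTM1 alone averaged 1667 TPM in TRF+DDP, against 1507 TPM in DDP, and 2445 TPM in TRF, against 1209 TPM in CON. In TRF+DDP against DDP it was thus higher where the sum was lower, and the abundant CTSD was lower there.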
